A study of Mus musculus with 123 samples.

Results

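The 6 genes described here encode proteins of the thick filament and M-band of the sarcomere, of the thin filament, or of the Z-disc and costamere: Ttn, Mybpc3, Myom1, Nebl, Lmod2 and Cmya5. They were taken by symbol from a table of 23337 gene symbols counted in single αMHC-GFP+ heart cells, by a rule that names them and sets no threshold on their values, although they were chosen with earlier results of these data known. Of 123 tabulated cells 112 were used, those in which at least 2000 genes had a count. They comprised 42 cells of embryonic day 9.5 (E9.5), 29 of E12.5 and 41 of postnatal day 1 (P1). All came from hearts of mice labelled with the strain aMHC-GFP, in which the promoter of the α myosin heavy chain gene Myh6 drives green fluorescent protein, so the sort chose cells in which that promoter was active. Hearts were digested with collagenase type I at E9.5 and E12.5 and with Liberase Blendzyme at P1, so the enzyme and the P1 stage cannot be told apart. Nothing in the labels ties a cell to an animal, litter, pool or chip, and each time point was therefore 1 sample: cells are not replicates, and no p-value or standard error is given.

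Cell titles fall into naming sets by their prefix, and these stood in for the missing batches. No label says that the cells of a set were handled together. Titles of N530 and N523 also end in a C number, so the prefix C need not name a batch shared by the stages. Set C held every P1 cell, 14 of the E9.5 cells and 20 of the E12.5 cells. The other E9.5 cells (28) made up set N530, and the other E12.5 cells were N523 (8) and a single cell titled E12-5b. Median depth was 389394 to 415427.5 counts per cell in the embryonic C sets, 3151946 in N530, 4895287.5 in N523 and 149078 at P1. Because N530 gave 94.5% of the E9.5 counts and N523 82.7% of the E12.5 counts, the level of a gene is given as the mean over cells of each cell's CPM (counts per 1000000 counts of that cell). A ratio was called only where it reached 2-fold and had the same direction in every combination of naming sets of at least 6 cells. Most cells carried the heart muscle label in their transcripts, where a marker was taken as found at 1 count. Of 8 cardiomyocyte markers, at least 7 were found in every E12.5 and P1 cell and all 8 in every N530 cell, whereas 3 E9.5 cells of set C had 3 or 4 of them. Among the P1 cells, 1 with 7 of these markers had 7507 CPM of endothelial markers and is described below. Myod1, Myf5 and Pax7 of skeletal muscle were at 0 in every kept cell.

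Titin, the product of Ttn, is a giant elastic protein that runs from the Z-disc to the M-band and serves as a template for the thick filament. Myomesin (Myom1) crosslinks myosin and titin at the M-band, and cardiac myosin-binding protein C (Mybpc3) binds myosin and titin along the thick filament and tunes crossbridge formation. Nebulette (Nebl) binds actin near the Z-disc, leiomodin 2 (Lmod2) elongates thin filaments at their pointed ends, and myospryn (Cmya5) is a large scaffold of the costamere and Z-disc that binds titin and other proteins. Together they describe how a sarcomere is framed before and after birth.

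The genes differ greatly in length, which bears on how their counts are read. In GENCODE M21 on GRCm38, Ttn lies on the minus strand of chromosome 2 from 76703980 to 76982547, and its longest transcript has 347 exons and 106.824 kb. Mybpc3 lies on the plus strand of chromosome 2 from 91118144 to 91136516 (35 exons, 4.163 kb), and Nebl on the minus strand of the same chromosome from 17343909 to 17731464 (28 exons, 8.079 kb). Myom1 lies on the plus strand of chromosome 17 from 71002633 to 71126856 (38 exons, 5.648 kb), Lmod2 on the plus strand of chromosome 6 from 24597762 to 24605414 (3 exons, 1.976 kb), and Cmya5 on the minus strand of chromosome 13 from 93040713 to 93144724 (13 exons, 11.85 kb). Lengths implied by the deposited counts and TPM were within 2% of the longest transcript for Ttn, Mybpc3, Myom1, Lmod2 and Cmya5, but 3.02 kb for Nebl. The TPM of Nebl are therefore per length of a shorter model of the gene. Counts per gene do not separate isoforms of titin, or nebulette from the LIM-nebulette made from the same gene.

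Ttn, Mybpc3 and Myom1 were found together in nearly all cells, so the bases before their annotated starts are shown side by side, from RefSeq on GRCm38.p6. Motifs were searched on both strands of the 250 bases before the start, and capitals mark every match inside the printed bases. A further E-box of Myom1, 231 to 226 bases before its start, lies outside them. The muscle factors searched for were MEF2 (cores TATTTATA and TATTTTTA), SRF (the CArG box), TEAD (MCAT, the letters CATTCC) and GATA factors (the letters AGATAA). The E-box of helix-loop-helix factors (the letters CANNTG) and the TATA box (the letters TATAAA) were searched as well. Each stretch holds 150 bases outside annotated exons and ends 10 bases before the RefSeq start for Ttn, 30 for Mybpc3 and 36 for Myom1.
Ttn, minus strand, chr2:76982558-76982707: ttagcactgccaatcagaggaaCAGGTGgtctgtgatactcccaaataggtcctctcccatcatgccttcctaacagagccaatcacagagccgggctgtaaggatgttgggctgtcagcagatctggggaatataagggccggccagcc
Mybpc3, plus strand, chr2:91117964-91118113: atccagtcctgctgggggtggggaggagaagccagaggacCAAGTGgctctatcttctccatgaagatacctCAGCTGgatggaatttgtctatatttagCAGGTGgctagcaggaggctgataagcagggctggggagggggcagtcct
Myom1, plus strand, chr17:71019371-71019520: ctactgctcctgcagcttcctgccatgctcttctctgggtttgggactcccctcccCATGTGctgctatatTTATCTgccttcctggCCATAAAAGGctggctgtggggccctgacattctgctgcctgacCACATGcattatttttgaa

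The RefSeq start used for Myom1 lies inside the GENCODE gene, which also has transcripts that begin upstream of it. The Myom1 stretch held a CArG box, a GATA match and E-boxes, and the other two stretches held E-boxes. Over the 32851 promoters of the reference table, 1.47% held the CArG box, 9.99% the GATA core and 66.2% an E-box. No MEF2 core, MCAT or TATA box in these letters was found in the 250 bases before the start of Ttn, Mybpc3 or Myom1; 3.90%, 12.6% and 12.4% of all promoters held them. A match is a description of the sequence and was not tested for binding.

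Ttn was among the most counted genes at each stage. Its mean was 22251 CPM at E9.5 (lowest cell 0, median 13136, highest 87535), 7175 CPM for E12.5 (6.42, 8183 and 17641) and 22399 CPM at P1 (19.4, 22211 and 51030). In pooled counts it stood at 25350 CPM (exact 95% Poisson interval 25319 to 25381), 4886 (4867 to 4906) and 22686 (22573 to 22799), where the interval covers counting error only, since the reads carried no molecular identifiers and are not independent molecules. By mean CPM it ranked 1st of 13429 genes found at E9.5, 6th of 12178 at E12.5 and 3rd of 11054 at P1. Per length the picture differed: its mean TPM, at 509, 129 and 361, ranked 327th, 1270th and 412th.

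The E12.5 mean of Ttn was thus 3.10-fold below that of E9.5 (log2 ratio -1.63), but this value depended on which cells stood for E9.5. Within set C, Ttn went the other way, from 5650 CPM at E9.5 (0, median 5084, highest 13938, 14 cells) to 8066 CPM at E12.5 (962, 8548 and 17641, 20 cells), 1.43-fold higher (log2 ratio 0.51). Of those 14 E9.5 cells 3 had no Ttn and few cardiomyocyte markers, and over the other 11 the mean was 7191 CPM, so that E12.5 was 1.12-fold higher (log2 ratio 0.17). Between the deep sets it went from 30551 CPM in N530 (796, 30053 and 87535, 28 cells) to 4703 CPM in N523, 6.50-fold lower (log2 ratio -2.70). The SD of the log2 ratio over the 4 combinations of sets was 1.48, close to the ratio itself, and the difference was not called.

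**Figure D1:**
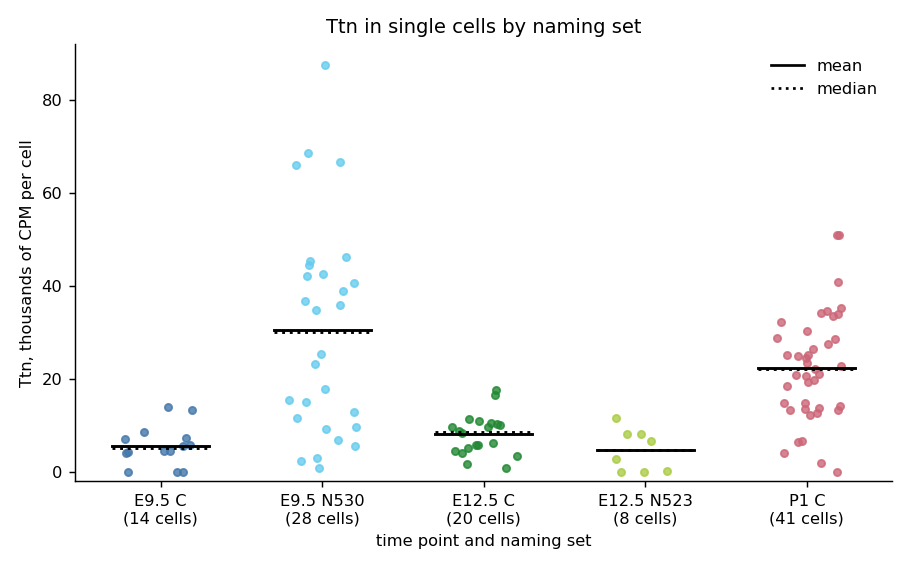
Each point is the Ttn level of a cell in units of 1000 CPM (linear axis), by time point and naming set, with the mean as a solid line and the median as a dotted line; the single E12-5b cell is left out. N530 has a mean of 30551 CPM and E9.5 set C 5650 CPM, while both E12.5 sets, at 8066 and 4703 CPM, lie nearer to E9.5 set C than to N530.

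The sets of E9.5 stood 5.41-fold apart, more than the all-cell means of any 2 stages. Of the 28 N530 cells, 19 lay above every E9.5 cell of set C, and 17 lay above every E12.5 cell of set C. By contrast 2 of the 20 E12.5 cells of set C lay above every E9.5 cell of set C. The low E12.5 value therefore rested on comparison with N530: without the N530 cells the log2 ratio of E12.5 to E9.5 was 0.34, and without the N523 cells it was -1.45.

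Within N523 the 8 cells fell into a low and a high range. Ttn stood at 6.42, 39.6, 182, 2735, 6737, 8183, 8212 and 11529 CPM. The cells at 6.42, 39.6 and 182 CPM had 5136532, 7711355 and 6728675 counts in all. They still had 52713, 74532 and 31814 CPM of 14 other sarcomere genes (Myh6, Myh7, Actc1, Acta1, Tnnt2, Tnni1, Tnni3, Tnnc1, Tpm1, Myl2, Myl3, Myl4, Myl7 and Actn2, called the sarcomere reference below). They had the fewest genes found, at 2713, 3401 and 2565 against 4796 to 6327 in the other 5 cells of the set. Their summed CPM over 20 long transcripts (Syne1, Macf1, Ryr2, Dmd and other long genes) was 435, 4.28 and 0.743, against 1452 to 3263 in the other 5. Myom1 was at 0 in the cells at 39.6 and 182 CPM and at 946 CPM, the highest of the set, in the cell at 6.42 CPM. Mybpc3 was at 408, 2724 and 45.2 CPM in the cells with 6.42, 39.6 and 182 CPM of Ttn, and at 648 to 1654 CPM in the other 5. The 3 cells were the only kept cells with less than 500 CPM of the long transcripts. Without them, a choice made after their values were seen, the N523 mean of Ttn was 7479 CPM, 4.08-fold below N530, the log2 ratio of E12.5 to E9.5 over all cells was -1.48, and that of P1 over E12.5 was 1.49.

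**Figure D2:**
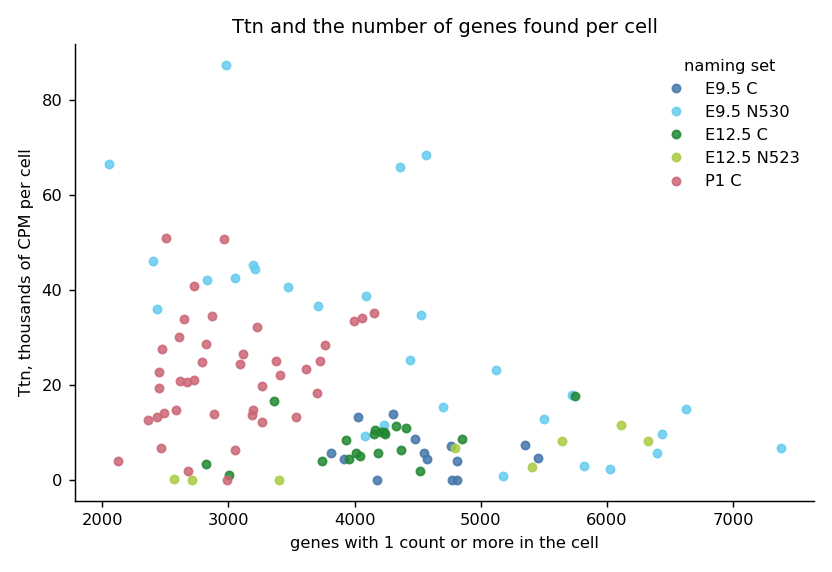
The Ttn level of each cell in units of 1000 CPM is plotted against the number of genes found in it, coloured by naming set. The lowest N523 cells lie at 2565 to 3401 genes, and in N530 the cells with the most Ttn have fewer genes than those with the least.

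Over the cells of a naming set, given as a description, Ttn and the number of genes found had a Pearson r of 0.90 in N523 (8 cells, log2(CPM + 1)), 0.50 in E12.5 set C (20 cells), 0.16 at P1 (41 cells), -0.06 in E9.5 set C (14 cells) and -0.68 in N530 (28 cells). The sign was thus opposite in the deep sets. The summed long transcripts went with Ttn at r of 0.52 to 0.65 in 4 sets and 0.18 in E9.5 set C. Between sets, N530 was higher than E9.5 set C for 15 of the 20 long transcripts (median 2.01-fold) and for 14 of 14 sarcomere reference genes (median 1.85-fold), against a median of 1.04-fold over 9096 genes at 10 CPM or more. N523 was lower than N530 for 16 of 20 long transcripts (median 0.250-fold), while the sarcomere reference had a median of 1.36-fold and 8573 genes a median of 0.638-fold. Within set C, E12.5 against E9.5 had a median of 1.03-fold over 19 long transcripts. The part of depth, of transcript length and of the naming set in the Ttn values was not tested.

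Set against the other sarcomere genes of the same cell, Ttn kept the order seen in CPM. Per 1000 counts of the sarcomere reference, the median was 140 counts in E9.5 set C (13 cells with 100 or more reference counts), 540 in N530, 164 in E12.5 set C, 51 in N523 and 233 at P1 (40 cells). Set C thus lay close together at E9.5 and E12.5 and N530 stood apart from it. Mybpc3 had medians of 6.01, 26.2, 10.0, 14.7 and 11.8 counts on this scale in the same order of sets, and Myom1 3.00, 14.2, 6.85, 4.25 and 7.63, so N530 was the highest set for all 3 genes.

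Ttn was called higher at P1 than at E12.5. Its mean was 3.12-fold higher (log2 ratio 1.64), with log2 ratios of 1.47 against E12.5 set C and 2.25 against N523. Of the 41 P1 cells, 27 lay above every E12.5 cell of set C and 36 above every N523 cell. Of 18 other settings, 1 took the ratio below 2-fold: per 1000 sarcomere reference counts the log2 ratio of means was 0.86. The ratio of P1 to E9.5 was 0.01 on the log2 scale, a value between 1.99 against set C and -0.45 against N530, and was not called.

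**Figure D3:**
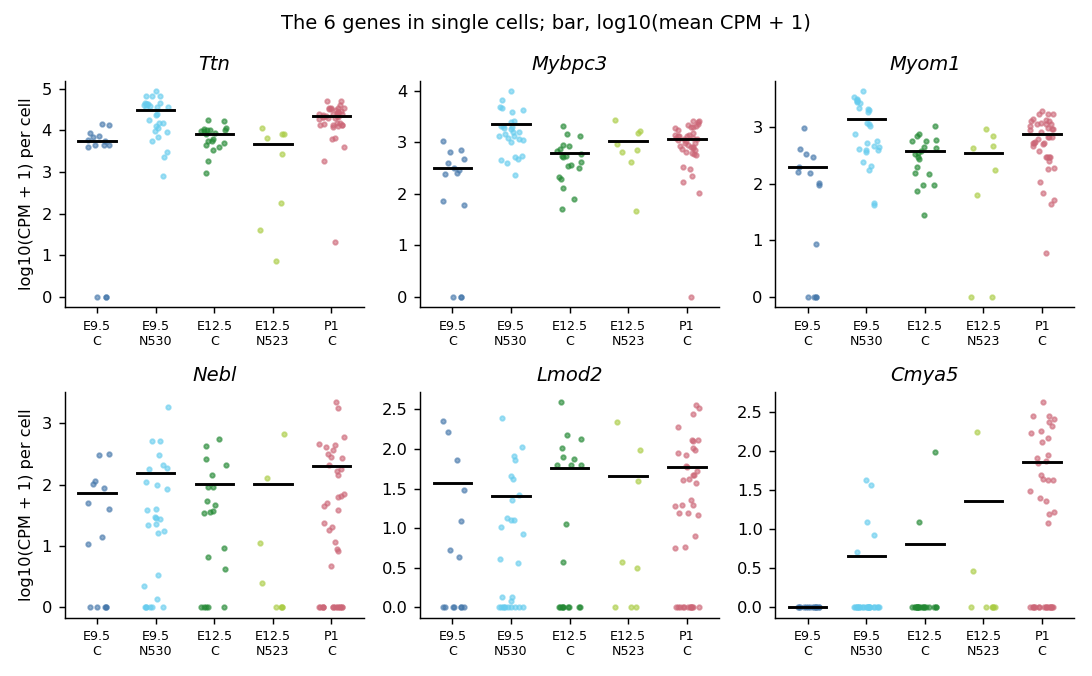
Each point is a cell, with log10(CPM + 1) of the gene on the vertical axis and time point and naming set on the horizontal axis; bars mark log10(mean CPM + 1). Cells at 0 are few for Ttn, Mybpc3 and Myom1, many for Nebl and Lmod2, and the majority of embryonic cells for Cmya5.

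Mybpc3, the thick filament regulator, had the highest TPM of the 6 genes at each stage, with means of 891, 312 and 462 at E9.5, E12.5 and P1, which ranked 168th, 565th and 324th among the genes found. In CPM its mean was 1622 at E9.5 (lowest 0, median 1090, highest 9851), 726 at E12.5 (45.2, 534 and 2724) and 1170 at P1 (0, 1121 and 2568). The sets of E9.5 stood 7.02-fold apart, at 324 CPM in set C and 2272 in N530. At E12.5 set C had 613 CPM and N523 1079, the opposite order to Ttn, which was lower in N523. The log2 ratio of E12.5 to E9.5 was -1.16 over all cells, 0.92 within set C (0.57 without the same 3 cells) and -1.07 between the deep sets. That of P1 to E12.5 was 0.69, and it lay at 0.93 against set C and 0.12 against N523. That of P1 to E9.5 was -0.47, with 1.85 against set C and -0.96 against N530. Mybpc3 was called in no comparison.

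Myom1, the M-band crosslinker, had lower mean CPM than Mybpc3 at each stage. Its mean was 999 CPM at E9.5 (lowest 0, median 413, highest 4364), 363 at E12.5 (0, 331 and 1056) and 756 at P1 (4.86, 679 and 1969). N530, at 1400 CPM, stood 7.13-fold above E9.5 set C, at 196 CPM, while the E12.5 sets, at 379 CPM in C and 347 in N523, were nearly level. The log2 ratio of E12.5 to E9.5 was -1.46 over all cells, 0.95 within set C (0.60 without the same 3 cells) and -2.01 between the deep sets, and was not called. Myom1 was called higher at P1 than at E12.5, at 2.08-fold (log2 ratio 1.06, with 0.99 and 1.12 against the 2 sets). It was below 2-fold under 3 of 18 other settings, the lowest being 0.34 per 1000 sarcomere reference counts. The P1 and E12.5 cells also overlapped widely, since 12 of 41 P1 cells lay above every E12.5 cell of set C and 14 above every N523 cell.

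Ttn, Mybpc3 and Myom1 were found together. All 3 had a count in 40 of the 41 P1 cells, 27 of the 29 E12.5 cells and 38 of the 42 E9.5 cells. They were all missing in 3 E9.5 cells of set C, and these were the cells with only 3 or 4 of the 8 cardiomyocyte markers, in which the sarcomere reference summed to 842, 239 and 1029 CPM. The 5 endothelial markers summed to 28.3, 1843 and 0 CPM in them and the 4 epicardial markers to 8.70, 0 and 476 CPM. The P1 cell with the least Ttn, at 19.4 CPM from 4 counts, had no Mybpc3, 374 CPM of the sarcomere reference and 7507 CPM of the endothelial markers, the highest endothelial sum of all kept cells. Leaving out these 4 cells, chosen after their values were seen, gave log2 ratios of Ttn of -1.74, 1.68 and -0.06 for E12.5 to E9.5, P1 to E12.5 and P1 to E9.5. The endothelial markers were at 0 in all 8 N523 cells.

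Nebl, which encodes the actin-binding nebulette, was present in most cells at low counts and very high in a few. Its mean was 127 CPM at E9.5 (lowest 0, median 27.0, highest 1856), 97.2 at E12.5 (0, 15.4 and 672) and 200 at P1 (0, 22.9 and 2211). The median at P1 was below that at E9.5 although the mean was higher. In N523 4 of 8 cells were at 0, and 1 cell at 672 CPM supplied 3949 of the 4629 counts. The share of cells with Nebl was 73.8% at E9.5 (exact 95% Clopper-Pearson interval 58.0 to 86.1), 69% at E12.5 (49.2 to 84.7) and 65.9% at P1 (49.4 to 79.9), intervals that overlap. Nebl was called higher at P1 than at E12.5 at 2.05-fold (log2 ratio 1.04, with 1.00 against set C and 0.98 against N523). Within set C the median was 22.9 CPM at P1 and 35.6 CPM at E12.5, with 20 of 41 P1 cells above the E12.5 median, and a count was present in 65.9% of P1 cells and 75% of E12.5 cells. Under 11 of 18 other settings the ratio was below 2-fold. The log2 ratio of medians (plus 1 CPM) was 0.54, that without the single E12-5b cell 0.996, that without the 3 N523 cells low in long transcripts 0.89, and that per 1000 sarcomere reference counts 0.36.

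Lmod2, which elongates thin filaments, was found in 59.5% of E9.5 cells (43.3 to 74.4), 58.6% of E12.5 cells (38.9 to 76.5) and 70.7% of P1 cells (54.5 to 83.9). At a depth of 60000 counts in every cell these shares were 38.1% (23.6 to 54.4), 44.8% (26.4 to 64.3) and 63.4% (46.9 to 77.9), so the embryonic values were lower once depth was made equal, and the intervals still overlapped. Its mean was 28.5 CPM at E9.5 (lowest 0, median 2.83, highest 244), 58.8 at E12.5 (0, 2.79 and 392) and 59.0 at P1 (0, 18.6 and 362). It was the 1 gene of the 6 whose mean was lower in N530 (24.7 CPM) than in E9.5 set C (36.2 CPM). It was called higher at E12.5 than at E9.5 at 2.06-fold (log2 ratio 1.04, range over sets 0.30 to 1.19) and higher at P1 than at E9.5 at 2.07-fold (log2 ratio 1.05, 0.71 and 1.26). Both calls stood close to the threshold, and the ratio was below 2-fold under 10 of 21 and 10 of 17 other settings. Without the E12-5b cell, at 220 CPM, the ratio of E12.5 to E9.5 was 0.89, and the median of cells plus 1 gave -0.013. Without the 4 cells with little of the sarcomere reference the 2 ratios were 0.94 and 0.98, below 2-fold.

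Cmya5, the scaffold myospryn, was the gene of the 6 that differed most between P1 and the embryo. A count of it was present in 5 of the 42 E9.5 cells (11.9%, 3.98 to 25.6), 4 of the 29 E12.5 cells (13.8%, 3.89 to 31.7) and 24 of the 41 P1 cells (58.5%, 42.1 to 73.7), although the P1 cells were the shallowest. Its mean was 2.38 CPM at E9.5 (lowest 0, median 0, highest 41.9), 9.64 at E12.5 (0, 0 and 170) and 70 at P1 (0, 21.6 and 418). In E9.5 set C it was found in 0 of 14 cells, which allows a share of up to 21.4% of cells by the limit of 3 cells (exact upper limit 23.2%), and a pooled level of up to 0.537 CPM by that of 3 counts (exact upper limit 0.660). Of the 864 counts at E12.5, 792 came from 1 N523 cell. After every cell was thinned to 60000 counts, 24 of the P1 cells (58.5%) still held a count, as did 3 of E12.5 (10.3%) and 2 of E9.5 (4.76%). It was called higher at P1 than at E12.5 at 7.27-fold (log2 ratio 2.86, with 3.71 against set C and 1.70 against N523) and higher at P1 than at E9.5 at 29.4-fold (log2 ratio 4.88, 4.29 against N530, and at least 7.03 against set C with its floor of 3 counts). The ratio of E12.5 to E9.5 was below the minimum level for a call.

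**Figure D4:**
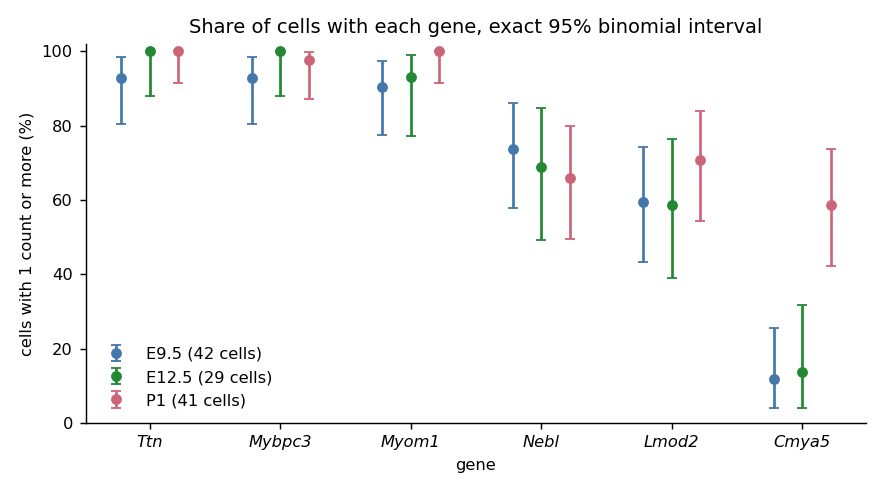
The share of cells with 1 count or more of each gene is plotted in percent with its exact 95% binomial interval, which covers counting error only, at E9.5, E12.5 and P1. The P1 interval of Cmya5 (42.1 to 73.7%) lies above both embryonic intervals, and for the other 5 genes the 3 intervals overlap.

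In all, 1 of the 5 genes with enough counts was called higher from E9.5 to E12.5 and 0 lower, against 9.38% of 6869 genes called higher and 17.3% called lower by the same rule. From E12.5 to P1, 4 of the 6 were called higher (Ttn, Myom1, Nebl and Cmya5) and 0 lower, against 12.3% higher and 26.7% lower of 5822 genes. From E9.5 to P1, 2 of the 6 were called higher (Lmod2 and Cmya5) and 0 lower, against 14.2% higher and 39.2% lower of 6617 genes. The median log2 ratios of all 6 members, tested or not, were -0.77, 1.05 and 0.33. Those of all genes tested with a count at the earlier stage were -0.16, -0.47 and -0.76. The member median of -0.77 includes Cmya5, which was not tested from E9.5 to E12.5 (log2 ratio 2.02). Over the 5 tested members the middle value was -1.16, that of Mybpc3. The comparisons share their cells and are not independent of each other. Within set C, where all 3 stages had cells under 1 naming, the mean of every one of the 6 genes was higher at P1 than at E12.5, by as little as 1.05-fold for Lmod2, and 5 of them were 2-fold or more above E9.5, all but Lmod2 at 1.63-fold. Without the cells of this set below 2000 CPM of the sarcomere reference (3 of E9.5 and 1 of P1), the same 5 genes were 2.20-fold or more above E9.5 and Lmod2 1.31-fold. Of 8541 genes at 10 CPM or more in this set, 3497 were higher at P1 than at E12.5. Of the 14 sarcomere reference genes 10 were higher and 4 lower, at a median of 2.09-fold. The median of the 6 members was 2.00-fold. By the 2-fold rule in set C alone, 13.1% of 5978 genes were higher at P1 than at E12.5 and 34.8% lower, and 16.9% of 6400 genes were higher at P1 than at E9.5 and 41% lower.

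**Figure D5:**
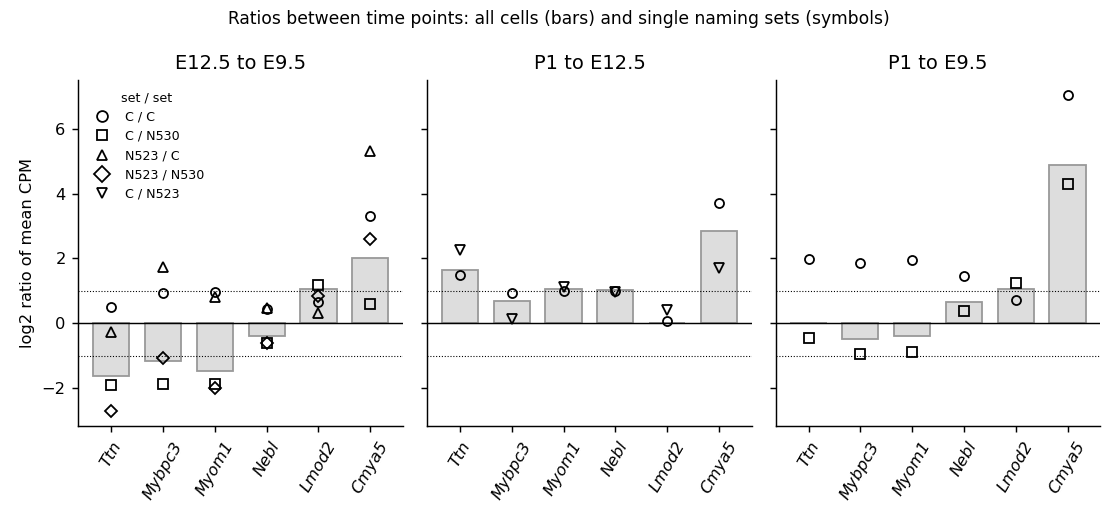
Bars give the log2 ratio of mean CPM over all kept cells for each gene and pair of time points, symbols the same ratio between single naming sets, and dotted lines mark 2-fold. For E12.5 to E9.5 the symbols of Ttn, Mybpc3, Myom1 and Nebl lie on both sides of 0, while for P1 to E12.5 every symbol lies above it; Cmya5 against E9.5 set C is a lower bound.

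The genes that work with titin and at the M-band moved in both directions. Of 20 listed partners, 3 were called higher and 2 lower of 16 tested from E9.5 to E12.5, 5 higher and 1 lower of 15 from E12.5 to P1, and 5 higher and 5 lower of 17 from E9.5 to P1. Myom2, the M-protein that joins myomesin in the M-band, had 0 counts in the 29 E12.5 cells, was found in 1 E9.5 cell and in 25 P1 cells with a mean of 86.6 CPM, at least 237-fold higher than in E12.5 set C and 1207-fold higher than in N523, with a floor of 3 counts over each set. Fhl2, which binds the titin N2B region, rose 4.41-fold from E12.5 to P1 (285 to 1260 CPM), with 3.89-fold against set C and 19.5-fold against N523. Rbm20, the splicing factor that acts on titin transcripts, is given although its ratio was not among the 4 largest, a choice made after its values were seen. It rose 2.47-fold over the same interval (42.3 to 105 CPM), but stood at 27.9 CPM in E9.5 set C and 187 CPM in N530. Ankrd1, a stretch-responsive titin partner, fell 4.13-fold from E12.5 to P1 (3154 to 764 CPM), with 4.72-fold against set C and 2.34-fold against N523. Ankrd23, another ankyrin repeat protein that binds titin, rose 13.8-fold from E9.5 to E12.5 (1.45 to 20.0 CPM; 5.31-fold to 38.3-fold over the combinations of sets), and Smyd1, a muscle lysine methyltransferase, fell 2.21-fold over all cells, 1.16-fold within set C and 2.62-fold between the deep sets. From E9.5, Tcap, which caps titin at the Z-disc, rose 2.58-fold to E12.5 (1.34-fold within set C and 6.03-fold between the deep sets) and 5.41-fold to P1, whereas Obsl1, an M-band protein, fell 4.39-fold and 20.1-fold and the myosin chaperone Unc45b fell 6.28-fold to P1, a value that was 8.77-fold against N530 and 1.30-fold against set C.

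In the thick filament list of 10 genes, 1 was called higher and 1 lower of 7 from E9.5 to E12.5, 3 and 3 of 6 from E12.5 to P1, and 2 and 3 of 6 from E9.5 to P1. Myh6, the α myosin heavy chain whose promoter drives the reporter, was lower at E12.5 than at E9.5 in both kinds of set, by 1.62-fold within set C and 5.76-fold between the deep sets. Over all cells it fell from a mean of 7294 CPM to 1605 CPM at E12.5, 4.54-fold, and then rose 6.86-fold by P1 (11010.5 CPM). Myh7, the β myosin heavy chain, fell 5.87-fold from E12.5 to P1 (1873 to 319 CPM). The ventricular light chain gene Myl2 rose 3.73-fold and then 2.60-fold, while the atrial light chain genes Myl4 and Myl7 fell 6.01-fold and 2.77-fold from E12.5 to P1, with 4.60-fold and 2.61-fold against set C and 9.97-fold and 3.44-fold against N523. Mybpc3 itself was between these, with no call.

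Among 11 genes of thin filament length and capping, 1 was called higher and 2 lower of 8 from E9.5 to E12.5, 2 and 2 of 7 from E12.5 to P1, and 2 and 3 of 8 from E9.5 to P1. Nrap, a nebulin-related protein of myofibril assembly, was found in 5, 12 and 30 cells at successive stages, and rose 44.7-fold (0.331 to 14.8 CPM) and then 8.04-fold (to 119 CPM). The first ratio was 23.6-fold within set C, but 1.25-fold for N523 against E9.5 set C and 5.60-fold for N523 against N530, and the second was 7.35-fold against set C and 139-fold against N523. Lmod3, a relative of Lmod2, rose 2.33-fold from E12.5 to P1 (3.53-fold against set C and 1.52-fold against N523). Lmod1, the smooth muscle leiomodin, fell 12.46-fold from E9.5 to E12.5 and had 0 counts at P1. Its first ratio was 6.89-fold within set C and at least 712-fold between the deep sets, where a floor of 3 counts stood for no count in N523. Acta1, the skeletal α-actin, fell 3.93-fold and then 3.37-fold (2.40-fold and 3.70-fold within set C, 5.18-fold between the deep sets and 2.99-fold at P1 against N523), and the capping protein gene Tmod3 fell 6.61-fold from E12.5 to P1 (8.27-fold against set C and 3.29-fold against N523).

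Long transcripts other than Ttn differed among themselves. Of the 20, 1 was called higher and 2 lower of 20 from E9.5 to E12.5, 3 and 0 of 19 from E12.5 to P1, and 2 and 7 of 19 from E9.5 to P1. Dmd, encoding dystrophin, rose 16.2-fold and then 3.23-fold (11.4, 184 and 594 CPM). The first ratio was 9.55-fold within set C, but 1.75-fold for N523 against E9.5 set C and 6.41-fold for N523 against N530, and the second was 2.82-fold against set C and 15.4-fold against N523. From E9.5 to P1 it rose 52.2-fold, at 26.9-fold against set C and 98.5-fold against N530. Ryr2, the calcium release channel, stood at 1183, 296 and 1668 CPM and rose 5.63-fold from E12.5 to P1 (4.57-fold against set C and 13.2-fold against N523). Its E9.5 sets were at 335 CPM in C and 1607 in N530, a gap in the same direction as that of Ttn. Macf1 and Dync1h1, a cytoskeletal crosslinker and the dynein heavy chain, fell 2.23-fold and 2.24-fold from E9.5 to E12.5, with 1.07-fold and 1.05-fold within set C and 6.57-fold and 3.55-fold between the deep sets. Syne1, which encodes nesprin 1 of the nuclear envelope, rose 2.15-fold from E12.5 to P1 (26.8 to 57.8 CPM). The ratio was 1.52-fold against set C and at least 805-fold against N523, where the floor of 3 counts stood for no count. Lrp1, a lipoprotein receptor-related protein, had 0 counts at P1, at least 19.1-fold lower than in E9.5 set C and 101-fold lower than in N530 by the floor of 3 counts over the P1 cells. Fat1, an atypical cadherin, fell 3.85-fold from E9.5 to P1 (84.2 to 21.9 CPM; 2.74-fold against set C and 4.41-fold against N530). Mdn1, which encodes midasin of ribosome assembly, fell 3.39-fold (117 to 34.6 CPM; 2.26-fold and 3.96-fold against the same sets).

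Within cells of a naming set, levels on the log2(CPM + 1) scale were most alike for Ttn with Myh7 (mean Pearson r 0.69 over 5 sets), Ryr2 (0.69) and Myh6 (0.67) among 2798 genes compared. The range over sets was wide, at 0.48 to 0.95 for Myh7, 0.17 to 0.93 for Ryr2 and -0.09 to 0.99 for Myh6. Mybpc3 came 7th for Ttn, at 0.56, and Myom1 19th, at 0.45. The genes most like Mybpc3 were Tnni1 (0.62), Actc1 (0.61) and Ttn (0.56), and those most like Myom1 were Myh6 (0.59), Atp2a2 (0.54) and Slc8a1 (0.53). Nebl was most like Acta1 (0.42), Epb4.1l3 (0.41) and Fitm1 (0.39), Lmod2 most like Ctgf (0.45), Chchd10 (0.42) and Txlnb (0.42), and Cmya5, over 4 sets, most like Lamb1 (0.45), Mtdh (0.42) and Pcmt1 (0.42). Weak values in sparse counts are no more than an order. The values of Ttn also depended on the measure in some sets: Ttn and Mybpc3 had a Pearson r of 0.93 in E9.5 set C and 0.74 at P1, but Spearman rho of 0.18 and 0.10. In N530, where every cell had both, Pearson r was 0.37 and rho 0.30, and Ttn and Myom1 had 0.63 and 0.60. Ttn and the summed sarcomere reference had r of 0.98 and rho of 0.62 in E9.5 set C, and 0.84 and 0.001 at P1. Those sets hold the 3 E9.5 cells and 1 P1 cell below 2000 CPM of the sarcomere reference. The part of these cells in the high values of r was not tested.

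The number of members found in a cell was lowest in the 3 E9.5 cells of set C that had 0 of the 6. All 6 were present in 13 P1 cells but in 3 of E12.5 and 2 of E9.5, a difference in which Cmya5 was the member most often missing in the embryo.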

How the data were processed

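Sorted αMHC-GFP+ cells were captured on the Fluidigm C1, and cDNA was made with SMART-Seq V4. Reads were aligned by the authors with OLego. They deposited raw counts per gene symbol from featureCounts, together with linear TPM from their own Perl scripts; the processing notes name GRCm38 (mm10). The study's methods exclude cells with fewer than 2000 expressed genes and state a number of cells kept that is 1 below the 123 deposited, while 112 of these reached 2000 genes with a count here. How expressed genes were counted for that filter is not given in the sources used here. No table column was left unmapped, and the 11 P1 cells with fewer than 2000 genes entered no comparison other than those under a lower minimum.

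Counts were divided by each cell's total to give CPM (69522 to 7711355 counts in the 112 kept cells). With 1 sample a time point no test was run. A gene was tested for the fold rule where its mean CPM was 10 or more at either time point and it was found in 25% or more of the cells of the higher one. It was called at a ratio of 2 or more with the same direction in all combinations of naming sets of at least 6 cells. Shares carry exact binomial intervals and pooled CPM exact Poisson intervals at 95%, which cover counting error only, and 0 counts were read as a floor of 3. From each list of other genes, called genes were named, up to 4 by size of ratio in a comparison, and for each member the 3 genes of highest mean Pearson r over naming sets, among genes found in 50% or more of cells. A called gene of the titin and M-band list is not reported here. The members and lists were chosen with earlier results of these data known. TMM factors came from edgeR 4.0.16 in R 4.3.3, and all else from Python 3.11.15 with numpy 2.4.6, pandas 2.3.3 and scipy 1.17.1. Scripts were tested on simulated data. Alternatives were other weights of cells, TPM, other minimum numbers of genes, thinning, single naming sets, other denominators and cell choices.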

Additional observations from a re-analysis of the deposited data

Results flagged for a closer look

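The ratio of E12.5 to E9.5 had opposite signs in the naming sets for 4 of the 6 genes. On the log2 scale, Ttn was 0.51 within set C and -2.70 for N523 against N530, Mybpc3 0.92 and -1.07, Myom1 0.95 and -2.01, and Nebl 0.44 and -0.60. Without the 3 E9.5 cells of set C below 2000 CPM of the sarcomere reference, at 0 for all 4 genes, the values within set C were lower, at 0.17 for Ttn, 0.57 for Mybpc3, 0.60 for Myom1 and 0.097 for Nebl. The difference was not tested, since the sets are not labelled as samples, and naming set, depth and any chip behind it cannot be told apart.

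The 11 P1 cells with fewer than 2000 genes, left out of the comparisons except under the lower minimum of 1000 genes, also held the 6 genes. Their pooled levels were 20114 CPM for Ttn, 1185 for Mybpc3, 962 for Myom1, 168 for Nebl, 36.4 for Lmod2 and 22.4 for Cmya5, where 3 counts of their total correspond to 4.20 CPM. Ttn was found in 11 of 11 of these cells.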

How the results depend on the processing

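Of 336 log2 ratios under other settings, 268 moved by no more than 1 SD over the combinations of naming sets, 67 moved further and 1 reversed a call; of 54 shares, 48 stayed within the interval. In all 44 of the ratios changed sign, 20 of them within 1 SD, where the SD exceeded the size of the ratio. The Ttn ratio of E12.5 to E9.5 was 0.51 in set C only, 0.17 there without cells below 2000 CPM of the sarcomere reference, and 0.34 without the N530 cells. That of P1 to E12.5 was 2.21 in pooled CPM and 0.86 per 1000 sarcomere reference counts, and that of P1 to E9.5 was 1.99 in set C only and without N530. Lmod2 from E9.5 to E12.5 reversed to -0.013 with medians of cells plus 1. The count of members called higher from E9.5 to E12.5 (1) became 0 with TPM, in set C only (with or without cells low in the reference), after thinning, in cells with cardiomyocyte markers, without the E12-5b cell, and without cells below 2000 CPM of the sarcomere reference, and was 1 of another gene (Mybpc3) without N530. The count called lower (0) became 3 without the E9.5 C cells (Ttn, Mybpc3 and Myom1; 27.8% of all genes were lower) and 1 without the E12.5 C cells (Ttn; 36.6%). The count higher from E12.5 to P1 (4) became 1 with TPM (Ttn), where the level minimum was 10 TPM, 3 in set C only (Myom1 was lost) and 3 with pooled CPM, after thinning, without the E12-5b cell and without cells below 500 CPM of the long transcripts (Nebl was lost). In the last of these N523, with 5 cells left, was no longer a set of at least 6. The count higher from E9.5 to P1 (2) became 0 with TPM, 5 in set C only (with or without cells low in the reference) and without N530, and 1 after thinning, in cells with cardiomyocyte markers and without cells below 2000 CPM of the reference. TPM split all genes from E9.5 to E12.5 into 6.46% higher and 21.4% lower. TMM factors shifted log2 ratios of pooled counts by 0.43, -0.26 and 0.17, and under them Mybpc3 from E12.5 to P1 was -0.15. Leaving out a naming set or cells low in the sarcomere reference or the long transcripts was chosen after seeing the data, and the cause was not tested. No paired analysis was possible because the titles' numbers tie no cells together across time points. Depth bears on the shares of low genes: thinning took that of Lmod2 at E9.5 from 59.5 to 38.1%.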
